A study of Mus musculus with 9 samples.

Results

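The genes of MHC class II antigen presentation were described in splenic plasmacytoid dendritic cells (pDCs), the dendritic cells known for producing large amounts of type I IFN. They are 10 genes, found by their symbols among the 52550 genes listed for the library: the class II chain genes *H2-Aa*, *H2-Ab1* and *H2-Eb1*, the invariant chain gene *Cd74*, the H2-DM genes *H2-DMa*, *H2-DMb1* and *H2-DMb2*, the H2-O genes *H2-Oa* and *H2-Ob*, and the transactivator gene *Ciita*. The RNA-Seq experiment had 9 samples, 3 for each of 3 genotypes, namely WT mice (G/G) and *Ncf1*-KI mice with 1 edited allele (G/A) or with both edited (A/A), all labelled C57BL/6. Their pDCs had been sorted by FACS as CD11c-intermediate, SiglecH+ and PDCA1+ cells, and all of them had been cultured for 12 hours with R848, a TLR7/-8 ligand. The KI allele replaces an arginine of NCF1, a NOX2 subunit, with histidine in all cells of the animal. The values below are those of A/A replicate 1 alone. The remaining 8 libraries were not analysed here, so genotypes were not compared and replicate errors cannot be given. The methods give adult female mice. In A/A replicate 1, *Ddx3y* on chromosome Y had 3215 reads and *Xist* was listed at 0, which goes against that description, and no second library was analysed here to set beside it. The library held 31408298 reads over 17664 genes with reads, as inferred from the steps of the deposited values, whose unit is not named; as the libraries were paired-end, a read here may be a fragment. The edited gene, *Ncf1*, had 33881 reads, and the values do not tell its alleles apart.

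MHC class II molecules are pairs of an α and a β chain that display peptides from endosomes to CD4+ T cells. New pairs assemble around the invariant chain, which blocks the groove and guides them to endosomes, where proteases trim it down to a short peptide called CLIP. H2-DM then trades CLIP for antigenic peptides, and H2-O restrains H2-DM. The genes share short promoter elements, the X and Y boxes, where the RFX complex, CREB and NF-Y bind and where CIITA, which does not bind DNA itself, docks to switch them on. Dendritic cells, pDCs among them, and B cells are known for expressing these genes.

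The stretches that hold these elements are shown here because they are what the genes are known to share. The RefSeq promoter table (GRCm38.p6, 250 bases before to 50 bases after a start) had entries for 7 of the 10 genes, all but *H2-Ab1*, *Cd74* and *Ciita*. In 6 of the 7, the letters TGATTGG, the core of the Y box, stood 23 to 26 bases after the letters AAC, part of the X box. The capitals mark these cores, and *H2-Eb2*, a class II gene next to *H2-Eb1*, is shown for comparison.
H2-Aa: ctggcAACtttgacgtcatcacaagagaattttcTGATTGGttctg
H2-Eb1: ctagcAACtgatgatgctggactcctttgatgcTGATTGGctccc
H2-DMb1: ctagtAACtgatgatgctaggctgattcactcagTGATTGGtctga
H2-DMb2: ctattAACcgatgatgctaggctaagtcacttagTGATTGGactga
H2-Oa: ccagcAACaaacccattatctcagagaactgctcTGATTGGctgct
H2-Ob: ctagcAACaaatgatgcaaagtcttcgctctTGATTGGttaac
H2-Eb2: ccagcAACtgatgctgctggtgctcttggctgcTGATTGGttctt

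These stretches lie on chromosome 17, upstream of each RefSeq start. For *H2-DMb1*, *H2-DMb2* and *H2-Oa* the stretch lies wholly or partly inside the span the deposited data give for the gene. That of *H2-Aa* is chr17:34287862-34287907 on the minus strand. The others are on the plus strand, *H2-Eb1* at chr17:34305773-34305817, *H2-DMb1* at chr17:34153094-34153139, *H2-DMb2* at chr17:34145123-34145168, *H2-Oa* at chr17:34092300-34092345, *H2-Ob* at chr17:34238815-34238857 and *H2-Eb2* at chr17:34325540-34325584. The Y core began 45 bases before the start in *H2-Oa* and 92 before it in *H2-DMb2*. Both entries of *H2-DMa* lacked the letters, and both describe starts that lie before the span the deposited data give for the gene. Searched on both strands, TGATTGG occurred in 7.82% of the 32851 promoters in the table, and AAC followed by TGATTGG after 20 to 28 bases occurred in 0.855%. A stricter form, AACNGATG before TGATTGG with the same distance from AAC, occurred in 5 promoters (0.0152%). These were *H2-Eb1*, *H2-DMb1*, *H2-DMb2*, *H2-Eb2* and *BC051142*, all on chromosome 17. The forms were chosen after these sequences were seen, several of the genes are related by descent, and a match is not a binding site. In A/A replicate 1 the genes with this strict form ranged from 159278 reads for *H2-Eb1* to 0 for *BC051142*, a gene named after its value was seen.

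**Figure D1:**
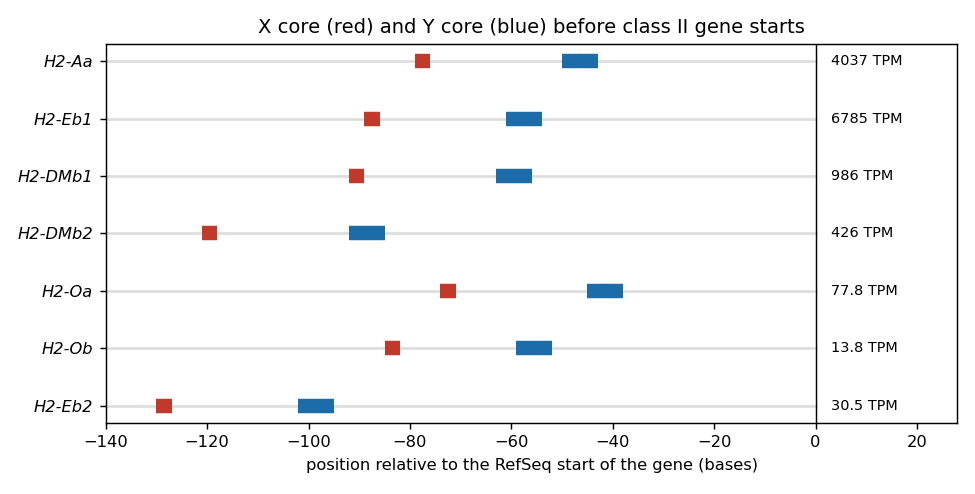
Positions of the X core (red, AAC) and the Y core (blue, TGATTGG) before the RefSeq start of 6 MHC class II genes and *H2-Eb2*; the horizontal axis is in bases from the start, and the level of each gene in A/A replicate 1 (TPM) is printed at the right. The cores lie 23 to 26 bases apart, where the search allowed only 20 to 28. The levels run from 13.8 TPM for *H2-Ob* to 6785 TPM for *H2-Eb1*.

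All 10 genes had reads in A/A replicate 1, and none was near the floor of 3 reads, or 0.0955 CPM. CPM here are a gene's reads over the total, scaled to 1000000, and intervals are Wilson 95% confidence intervals, which cover counting error only, since PCR copies of a molecule were not told apart. The 10 genes together held 1156696 reads, or 3.68% of the library (95% CI, 3.68% to 3.69%). Their median was 594.9 CPM, or 922.7 CPM with *H2-DMb1* and *H2-DMb2* taken as a sum, against 6.34 CPM for all genes with reads, and their median percentile among genes with reads was 98.5. Without a length correction, the genes fell into separate ranges. *Cd74* and the class II chain genes lay at 5071 CPM and above. The H2-DM genes and *Ciita* lay between 285.8 and 636.9 CPM, and the H2-O genes at 42.1 CPM and below. *Ciita* shared the range of the H2-DM genes in CPM only. Per kilobase of exon (TPM, defined below) it had 142.7 TPM, between *H2-DMa*, the lowest H2-DM gene, at 417.1 and *H2-Oa* at 77.81. *Cd74*, *H2-Ab1*, *H2-Aa* and *H2-Eb1* held 94.4% of the reads of the 10 genes.

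**Figure D2:**
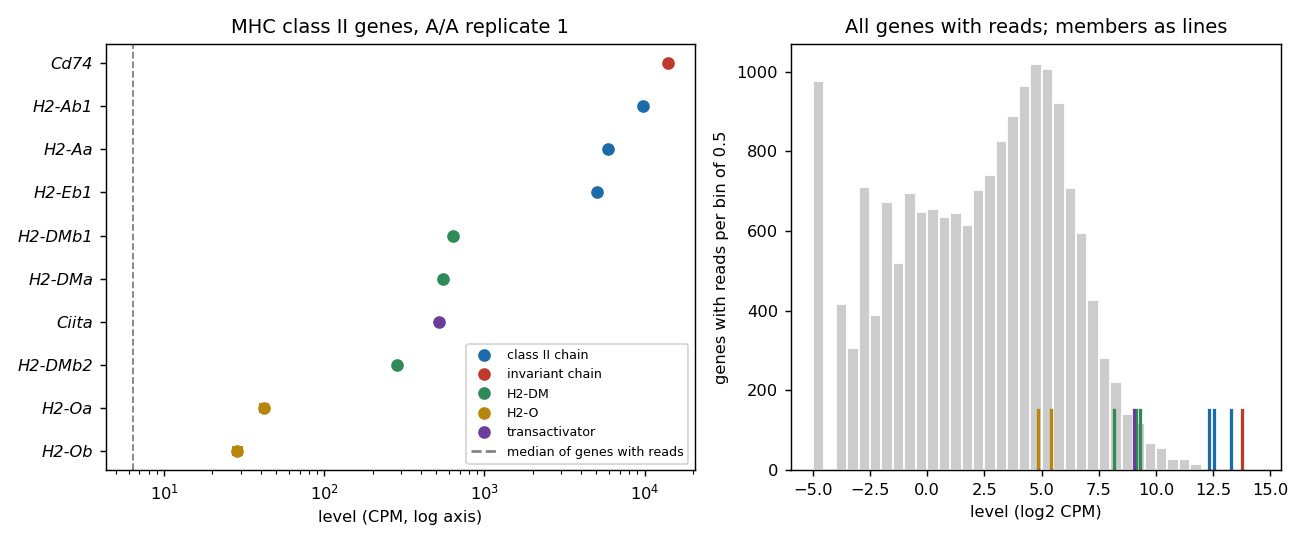
Left, levels of the 10 MHC class II genes in A/A replicate 1 (CPM, log axis), coloured by role, with Wilson 95% intervals that are mostly narrower than the points and a dashed line at the median of genes with reads, 6.34 CPM. Right, number of genes with reads per bin of log2 CPM, with the same 10 genes as lines; *Cd74* and the class II chain genes sit in the upper tail, and *H2-Oa* and *H2-Ob* lie near the peak of the distribution.

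*H2-Aa* encodes the α chain of I-A, and *H2-Ab1* encodes its β chain. The gene *H2-Ab1* (ENSMUSG00000073421.5) lies on the plus strand of chromosome 17 of GRCm38, from 34263209 to 34269418, and 309205 reads were assigned to it. The gene *H2-Aa* (ENSMUSG00000036594.14) lies on the minus strand of chromosome 17, from 34282744 to 34287827, and 185132 reads were assigned to it. The partner chains were thus unequal in reads, with *H2-Aa* at 0.599 times *H2-Ab1* (95% CI, 0.595 to 0.602). Levels of different genes are compared per length, as TPM, reads per kilobase of exon scaled to a total of 1000000. Over all annotated exons *H2-Aa* had 4037 TPM and *H2-Ab1* had 9972, a ratio of 0.405 (95% CI, 0.403 to 0.407). The size of this gap depended on the length used. The longest annotated transcript of *H2-Aa*, of 3223 bases, is not its protein-coding one, and over the longest protein-coding transcripts, of 1128 and 1212 bases, the ratio was 0.643 (95% CI, 0.640 to 0.647). *H2-Aa* was below *H2-Ab1* with each length.

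*H2-Eb1* encodes the β chain of I-E, the second class II molecule of mice. The gene *H2-Eb1* (ENSMUSG00000060586.10) lies on the plus strand of chromosome 17, from 34305877 to 34316199, and 159278 reads were assigned to it, giving 5071 CPM (95% CI, 5046 to 5096). Its α partner is listed as the pseudogene *H2-Ea-ps*, since C57BL/6 mice carry the H2-b haplotype, which is known to lack I-E α expression. Only 36 reads were assigned to *H2-Ea-ps*, on the minus strand of chromosome 17 from 34342933 to 34344643, which is 1.15 CPM (95% CI, 0.828 to 1.59). Per kilobase of exon, *H2-Eb1* was 2358 times *H2-Ea-ps* (95% CI, 1703 to 3367), and in reads alone 4424 times (95% CI, 3196 to 6317), so the β chain transcript of I-E was abundant beside very few reads of the α chain gene. The neighbouring β chain gene *H2-Eb2* had 1249 reads, and *H2-Eb1* was 223 times as high per kilobase (95% CI, 210 to 235) and 128 times as high in reads alone (95% CI, 121 to 135). None of the 50-base windows of *H2-Eb1* transcripts (0%) occurred in another gene.

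*Cd74* encodes the invariant chain. The gene *Cd74* (ENSMUSG00000024610.14) lies on the plus strand of chromosome 18, from 60803848 to 60812646, and 438089 reads were assigned to it, giving 37.9% of the reads of the 10 genes (95% CI, 37.8% to 38.0%). With 21609 TPM it was the highest of the 10 genes per length, and it stayed the highest with each of the other lengths. Over all annotated exons *Cd74* was 1.04 times the sum of *H2-Aa*, *H2-Ab1* and *H2-Eb1* (95% CI, 1.04 to 1.04). That near-parity did not hold over the longest protein-coding transcripts, where *Cd74* was 0.604 times the sum (95% CI, 0.601 to 0.606).

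The genes of H2-DM, the peptide exchange factor, stood below those of the class II chains. Over all annotated exons the nearest pair was *H2-Aa* and *H2-DMb1*, 4.10 times apart. Over the longest protein-coding transcripts that pair was 11.5 times apart. The nearest pair was then *H2-Eb1* and *H2-DMb1*, at 6649 and 992.6 TPM. The gene *H2-DMa*, for the α chain, (ENSMUSG00000037649.9) lies on the plus strand of chromosome 17, from 34135182 to 34139101, and 17367 reads were assigned to it, giving 552.9 CPM (95% CI, 544.8 to 561.2). The gene *H2-DMb1* (ENSMUSG00000079547.3) lies on the plus strand of chromosome 17, from 34153072 to 34160230, and 20003 reads were assigned to it, giving 636.9 CPM (95% CI, 628.1 to 645.8). The gene *H2-DMb2* (ENSMUSG00000037548.14) lies on the plus strand of chromosome 17, from 34143307 to 34151553, and 8977 reads were assigned to it, giving 285.8 CPM (95% CI, 280.0 to 291.8). *H2-DMb1* was the higher of the paired β chain genes, at 2.32 times *H2-DMb2* per kilobase of exon (95% CI, 2.26 to 2.37). These neighbours are close copies. Their longest protein-coding transcripts were identical at 95.5% of 1058 aligned bases. Of the 50-base windows of *H2-DMb1*, 22.7% occurred in *H2-DMb2*, and of the 150-base windows, the length of a read, 4.71%. Some reads could therefore have been split between them, and the ratio is uncertain to that extent. Taken as a sum, the β chain genes had 28980 reads, and *H2-DMa* had 0.296 times their level per kilobase (95% CI, 0.290 to 0.301). Over the longest protein-coding transcripts this was 0.427 (95% CI, 0.419 to 0.435). For *H2-DMa*, 10.4% of exon bases overlapped exons of genes on the opposite strand, and the use of strand in counting is not given in the sources used here.

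The genes of H2-O, the modulator of H2-DM, were the lowest of the 10. The gene *H2-Oa* (ENSMUSG00000024334.8) lies on the plus strand of chromosome 17, from 34092340 to 34095234, and 1322 reads were assigned to it, giving 42.1 CPM (95% CI, 39.9 to 44.4), at percentile 78.4. The gene *H2-Ob* (ENSMUSG00000041538.15) lies on the plus strand of chromosome 17, from 34238903 to 34245907, and 899 reads were assigned to it, giving 28.6 CPM (95% CI, 26.8 to 30.6), at percentile 72.0. Both were above the median gene with reads. *H2-Oa* was 5.62 times *H2-Ob* per kilobase of exon (95% CI, 5.16 to 6.13) and 3.61 times over the longest protein-coding transcripts (95% CI, 3.31 to 3.93). Of the exon bases of *H2-Oa*, 22.8% also belong to a gene on the other strand. The summed H2-DM genes stood 19.9 times above the summed H2-O genes per kilobase (95% CI, 19.1 to 20.8). This ratio was between 18.7 and 21.9 with the other lengths and was among those least affected by the choice.

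*Ciita* encodes the transactivator of these genes. The gene *Ciita* (ENSMUSG00000022504.9) lies on the plus strand of chromosome 16, from 10488178 to 10527564, and 16424 reads were assigned to it, giving 522.9 CPM (95% CI, 515.0 to 531.0). Its transcripts are long, with 9535 exon bases, and per length it had 142.7 TPM, at percentile 94.6, against percentile 98.2 for its CPM. *Ciita* has several promoters that different cell types use, and the gene-level value does not separate them. *Nlrc5*, the related transactivator of MHC class I genes, had 18618 reads. It was 1.27 times *Ciita* per kilobase of exon (95% CI, 1.25 to 1.30) and 0.899 times over the longest protein-coding transcripts (95% CI, 0.880 to 0.918), so their order depended on the length used.

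Over all annotated exons, from high to low, the order was *Cd74*, *H2-Ab1*, *H2-Eb1*, *H2-Aa*, *H2-DMb1*, *H2-DMb2*, *H2-DMa*, *Ciita*, *H2-Oa* and *H2-Ob*. Of these neighbours, *H2-DMb2* (425.6 TPM) and *H2-DMa* (417.1 TPM) did not differ beyond counting error, with a ratio of 1.02 (95% CI, 0.994 to 1.05). With the longest protein-coding transcripts *H2-Aa* moved above *H2-Eb1*, at 11435 and 6649 TPM. *H2-DMa* moved above *H2-DMb2* with each of the other lengths, at 603.5 and 421.7 TPM over the longest protein-coding transcripts.

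**Figure D3:**
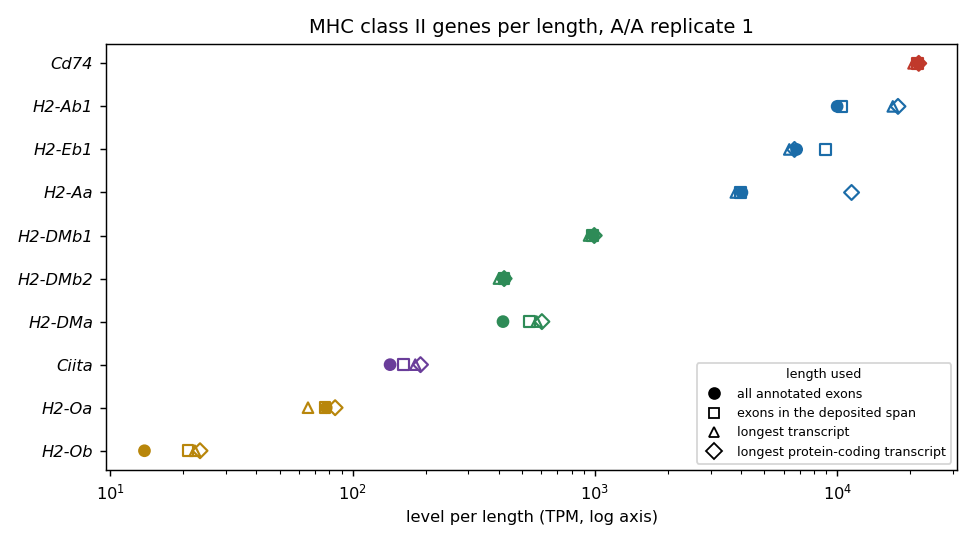
Level per length (TPM, log axis) of the 10 MHC class II genes in A/A replicate 1, with 1 marker for each of 4 gene lengths. *Cd74* is the highest and *H2-Ob* the lowest with every length, while *H2-Aa* lies at 4037 TPM over all exons and at 11435 TPM over its longest protein-coding transcript.

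Of the 10 genes, 8 lie together on chromosome 17, between *H2-Oa* and *H2-Eb1*, within 223.9 kb. That stretch lists 13 protein-coding genes, the 8 class II genes and 5 others. *Psmb8* and *Psmb9*, immunoproteasome subunits, and *Tap1* and *Tap2*, the peptide transporter of MHC class I, lie between *H2-DMb1* and *H2-Ob*, and had 1090, 381.0, 463.8 and 526.3 TPM. *Brd2*, a chromatin reader, had 94.2 TPM. Over all annotated exons some neighbours had nearly the same level, as *H2-DMa* and *H2-DMb2* did, and others lay far apart. With the other lengths *H2-DMb2* was 0.699 to 0.785 times *H2-DMa*. *H2-Ob*, at 13.8 TPM, ends 17.3 kb before the start of *H2-Ab1*, at 9972 TPM, and *H2-Eb2*, at 30.5 TPM, starts 9.5 kb after the end of *H2-Eb1*, at 6785 TPM.

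**Figure D4:**
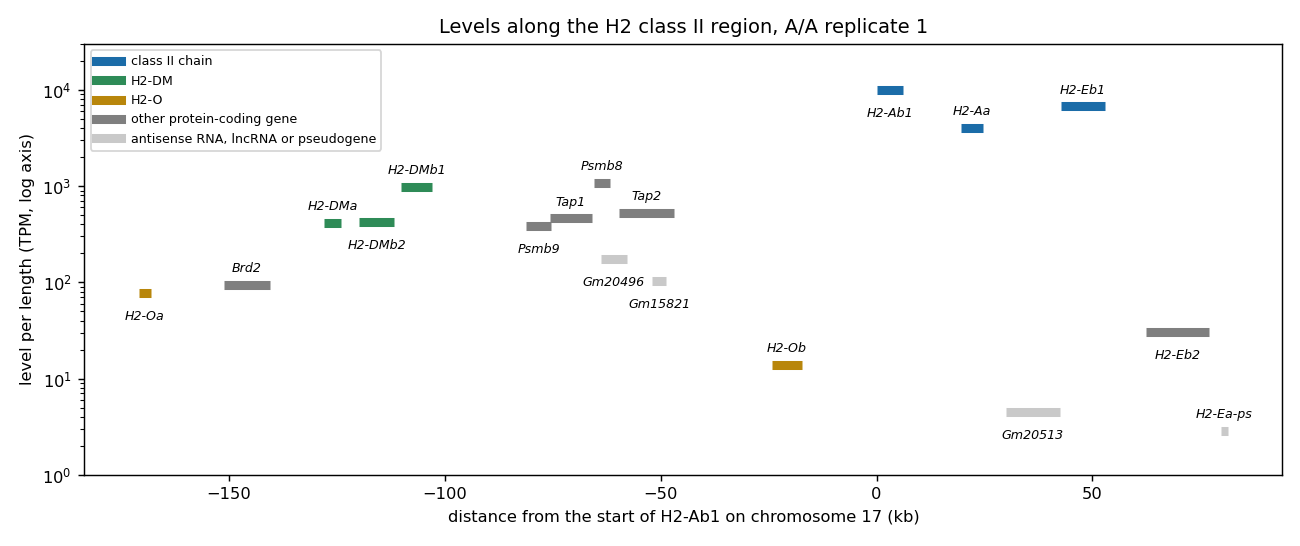
Genes along the H2 class II region of chromosome 17, with distance from the start of *H2-Ab1* (kb) on the horizontal axis and level per length (TPM, log axis) on the vertical axis; each bar spans 1 gene, and genes with no TPM above 0 are left out. *H2-Ab1*, *H2-Aa* and *H2-Eb1* stand above all their neighbours, and *H2-Ob* and *H2-Eb2* lie low on either side of them.

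Genes of the same pathway were taken from lists made by hand. The factors that bind the X and Y boxes lay below *Ciita* and above the median gene with reads. All 7 had reads, from 10.3 CPM for *Rfxap* to 54.6 CPM for *Rfx5*, both parts of the RFX complex. Per kilobase of exon they ran from 8.39 TPM for *Nfya* to 32.3 TPM for *Nfyc*. The median of the 7 was 14.6 TPM, against 142.7 TPM for *Ciita* and 705.5 TPM for the median of the 10 class II genes. *Rfxank*, the remaining RFX subunit, had 1027 reads, the NF-Y subunits *Nfya*, *Nfyb* and *Nfyc* had 741, 895 and 1148, and *Creb1* had 1597.

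Factors known to act on *Ciita* covered a wide range. *Irf8*, a factor of dendritic cell identity, had 2967 CPM, and *Spib*, an Ets factor of pDCs, had 2289. Their order depended on the length used. *Irf8* had 1094 TPM and *Spib* 2076 over all annotated exons, against 2280 and 1796 TPM over the longest protein-coding transcripts. The Ets factor *Spi1* had 536.8 CPM, *Irf1* 365.6 and *Usf1* 64.0. *Prdm1*, a repressor of *Ciita* in plasma cells, was the lowest of the 6, with 509 reads, or 16.2 CPM (95% CI, 14.9 to 17.7).

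Transcripts of the endosomal enzymes that trim the invariant chain and its cargo were abundant, though over a wide range. *Ctss*, cathepsin S, which makes the late cut in the invariant chain, was the highest of the 8 per length, with 93666 reads and 5712 TPM. *Ctsl*, which can make that cut in thymic epithelium, had 250.6 TPM. The reductase gene *Ifi30* had 1420 TPM, the protease genes *Ctsb*, *Lgmn*, *Ctsh* and *Ctsd* had 1240, 1037, 835.3 and 305.1, and *Sppl2a*, which clears the last membrane stub of the invariant chain, had 132.4. The median of the list was 936.1 TPM.

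Genes that set how long class II molecules stay at the surface stood far apart. *March1*, a ubiquitin ligase that marks class II molecules for removal, had 1201 reads, or 13.9 TPM. Its relative *March8* had 296 reads, or 2.54 TPM. *Cd83*, which opposes *March1*, had 58649 reads, or 1888 TPM. The symbols of both ligase genes stand as date numbers in the deposited data, and the genes were found by their identifiers.

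The 10 MHC class I presentation genes held 3.85% of the reads of the library, beside 3.68% for the class II genes. Their median was 816.7 TPM, with *B2m*, *H2-D1* and *H2-K1* at 36858, 12464 and 4725 TPM. Their lowest gene, *Nlrc5*, had 181.5 TPM, while *H2-Oa* and *H2-Ob* lay below that. *Ciita* lay below *Nlrc5* over all exons and above it over the longest protein-coding transcripts, as given above.

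**Figure D5:**
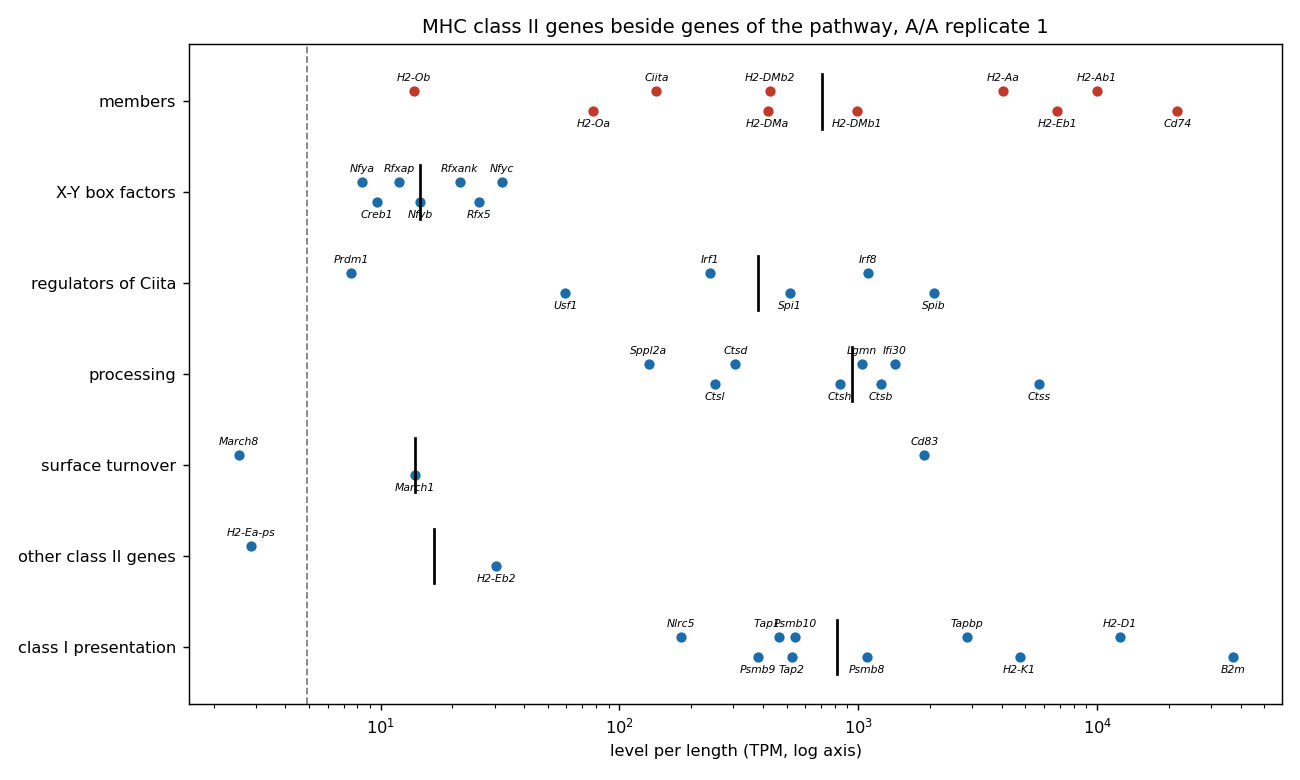
Level per length (TPM, log axis) of each gene in A/A replicate 1, with the 10 MHC class II genes in red and the pathway lists in blue; black lines are the medians of the lists, and the dashed line is the median of genes with reads, 4.94 TPM. The X-Y box factors lie between 8.39 and 32.3 TPM, below every class II gene except *H2-Ob*.

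Conventional dendritic cells, B cells and macrophages can also express these genes, so their markers are given beside the levels. All 11 pDC markers had reads, with a summed level of 7684 CPM, among them *Bst2* (PDCA1) with 52054 reads and *Siglech* with 11735. Most of this sum came from *Irf8* (2967 CPM), *Bst2* (1657 CPM) and *Ly6c2* (1190 CPM). *Klk1*, *Cox6a2* and *Pacsin1* were the lowest in CPM, which are not corrected for length, with 46.2, 65.6 and 88.6 CPM. Per kilobase of exon the lowest were instead *Tcf4*, *Pacsin1* and *Runx2*, at 55.70 TPM and below. *Klk1* then had 111.7 TPM, and *Cox6a2* had 250.8 TPM, above the median of the list, 137.6 TPM. The sums cover lists of unequal size and are not shares of cells. Of 7 conventional DC markers, 6 had reads, summing to 252.7 CPM. *Zbtb46* had 3319 reads, *Clec9a* 2322 and *Sirpa* 2121, while *Clec10a* had 74, *Xcr1* had 54, *Batf3* had 48 and *Cd209a* was at 0. Of 6 B cell markers, 4 had reads, summing to 10.2 CPM, with *Pax5* and *Fcer2a* at 0. The 7 macrophage markers all had reads, summing to 131.4 CPM, from 54 reads for *Mertk* to 1539 for *Csf1r*. The 4 T cell markers were at 0. The part of these cells in the levels of the class II genes was not tested. In a bulk sample, fewer cells of a type and less RNA per cell cannot be told apart.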

How the data were processed

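Sorted splenic pDCs of 3 genotypes were cultured with R848 before mRNA libraries were made and sequenced as paired-end reads. The authors deposited a normalized signal per gene, without a named unit, for the library analysed here. All values above 0 were whole multiples, within 0.01 reads, of 1 step of 1.19, the form that counts divided by 1 factor take, and dividing by the step gave whole numbers for 100% of them. That these are reads, or fragments of paired reads, is an inference on which every read count, CPM and interval rests. The submitters' processing notes name HISAT2, StringTie, mm8 and mm10. The counting tool and the annotation release are not given in the sources used here. Coordinates were those of GRCm38. Identifiers were matched to GENCODE M21 for 99.7% of genes, and 95.2% of the matched genes had the same coordinates. Each of the 10 class II genes has a newer version in M21. The deposited gene length equals the genomic span in 100% of genes and was not used. Symbols of 11 genes stand as date numbers, and these genes were named by identifier.

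CPM, midpoint percentiles among genes with reads, Wilson 95% intervals and, for ratios, exact binomial (Clopper-Pearson) 95% intervals were computed with Python 3.11.15, numpy 2.4.6, pandas 2.3.3 and scipy 1.17.1; figures used matplotlib 3.10.9 and alignments Biopython 1.88. For ratios of sums, the interval of the summed reads was scaled to the ratio per kilobase. TPM used the union of the annotated exons of M21 as the length. Shared sequence was counted as identical windows of 50 and 150 bases in M21 transcripts.

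With 1 library there is no test between genotypes, and the study's comparisons were not run. The genes named are the 10 class II genes, the pathway and marker lists, the protein-coding genes between them on chromosome 17 and *Ncf1*; others were named after their values were seen. The genes and lists were chosen with earlier results of these data known. Alternatives were other sets of genes for the percentile, other totals, other gene lengths, a pseudocount of 0.1 in place of 1 for log2 CPM, and a sum of *H2-DMb1* and *H2-DMb2*. Of the pathway and marker lists, 2 genes are not reported here and were left out of the counts and medians.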

Additional observations from a re-analysis of the deposited data

Results flagged for a closer look

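Between *H2-Oa* and *H2-Eb1*, 4 genes that are not protein-coding in GENCODE M21, or not listed there, had more than the 3 reads taken as the floor, in values that no comparison above used; they were named after their values were seen. *Gm15821*, a long noncoding RNA gene on the strand opposite *Tap2*, had 1499 reads, or 47.7 CPM (95% CI, 45.4 to 50.2). *Gm20496*, on the strand opposite *Psmb8* and *Tap2*, had 1387 reads, or 44.2 CPM (95% CI, 41.9 to 46.6). *Gm20513*, on the strand opposite *H2-Eb1* and just before it, had 39 reads, or 1.24 CPM (95% CI, 0.908 to 1.70). *Gm20506*, between *H2-Ob* and *H2-Ab1*, had 14 reads, or 0.446 CPM (95% CI, 0.266 to 0.748). No control library was analysed here. The part of reads from the overlapping genes *Tap2* and *Psmb8* was not tested.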

How the results depend on the processing

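No paired analysis was possible because 1 library was analysed. The median percentile of the 10 genes, 98.5, was 99.5 over all genes, 98.2 over genes with at least 10 reads, 98.8 per kilobase of exon, 98.9 per kilobase of exon in the deposited span (chosen after seeing the data) and 99.1 with *H2-DMb1* and *H2-DMb2* summed. The first of these is higher and the next lower by construction. The median of 594.9 CPM was 659.1 without the 10 highest genes in the total and 922.7 with the *H2-DMb* genes summed, both by construction. Leaving pseudogenes out of the total (601.5) or a pseudocount of 0.1 moved the medians by less than the counting error.

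The ratios depended on the gene length, and are given here in the order longest transcript, no length correction, exons in the deposited span and longest protein-coding transcript, the last pair chosen after seeing the data. *Cd74* to the sum of the class II chains, 1.04, turned below 1, to 0.762, 0.670, 0.916 and 0.604. *Nlrc5* to *Ciita*, 1.27, was 0.899, 1.13, 1.11 and 0.899. *H2-Aa* to *H2-Ab1*, 0.405, was 0.225, 0.599, 0.381 and 0.643. *H2-Eb1* to *H2-Ab1*, 0.680, was 0.374, 0.515, 0.854 and 0.374. *H2-DMa* to the *H2-DMb* genes, 0.296, was 0.427, 0.599, 0.384 and 0.427. *H2-Oa* to *H2-Ob*, 5.62, was 2.93, 1.47, 3.67 and 3.61. *H2-Eb1* to *H2-Ea-ps*, 2358, was 2746, 4424, 2080 and 2746, and to *H2-Eb2*, 223, was 259, 128, 193 and 259. H2-DM to H2-O, 19.9, was 21.9, 20.9, 19.7 and 18.7. *H2-DMb1* to *H2-DMb2*, 2.32, was 2.23 with no length correction and within counting error otherwise. The shift comes from the lengths alone, since the reads stay the same, and which length fits the transcripts of these cells was not tested. The annotated exons of some genes reach beyond the deposited span. *H2-DMa* had 3448 exon bases and 2651 in the span, and *H2-Ob* had 5380 and 3508. *H2-Eb1* had 1944 and 1459, and *Ciita* had 9535 and 8313. If reads outside the span were not counted, levels over all exons are too low for these genes, which was not tested. Among the class II genes and their pathway lists, *H2-Ea-ps* had the fewest reads, 36.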
